A study of Mus musculus with 2 samples.

Results

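The opioid and cannabinoid genes of dorsal root ganglion (DRG) neurons were examined: the 4 opioid receptor genes Oprm1, Oprd1, Oprk1 and Oprl1, the 2 cannabinoid receptor genes Cnr1 and Cnr2, and Faah and Mgll, whose products break down the cannabinoids that the body makes. These 8 genes were taken by symbol. They hold 26 of the 35034 RefSeq transcript rows and are 8 of the 24411 genes in the files. RNA came from thoracic and lumbar DRGs of male C57BL/6J mice (C57BL/6 in the labels), 6 to 8 weeks old at purchase, that had been injected intraperitoneally with 50% alum, an aluminium adjuvant, in 200 µl of saline. In one group the injection also held 100 µg of keyhole limpet hemocyanin (KLH), a mollusc protein used as a foreign antigen. Injections were given on day 0 and day 14, and ganglia were taken 14 days after the second, dissociated, enriched for neurons by density and depleted of B cells with magnetic beads. Each group was 1 library from the pooled neurons of 10 mice, so there are no replicates, and neither the spread between mice nor any test of the immunization can be had from these values. The control library carries a label that calls it both naïve and alum alone. It is treated here as alum-injected, as in the study's methods, and the groups are called the alum pool and the KLH pool.

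Opioid receptors and cannabinoid receptors are G protein-coupled receptors that act mainly through Gi and Go proteins. In sensory neurons they are known for lowering cAMP, closing voltage-gated calcium channels and, for some of them, opening inwardly rectifying potassium channels, by which they reduce transmitter release. The mu, delta and kappa receptors bind enkephalins, endorphins and dynorphins, the nociceptin receptor binds nociceptin, and the cannabinoid receptors bind the lipids anandamide and 2-arachidonoylglycerol, which are hydrolysed by FAAH and by monoacylglycerol lipase.

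Values are TPM, transcript abundance corrected for transcript length and scaled so that every library has the same total, and the TPM of a gene is the sum over its transcript rows. TPM keeps no read counts, so, although the study's methods give a minimum number of reads per library, the reads behind each value are unknown and no interval or detection limit could be attached. In both pools all 7 pan-neuronal marker genes were above 3 TPM, the detection threshold of the study, with a sum of 11797.5 TPM in the alum pool and 11724.4 TPM in the KLH pool. Satellite glia markers were present as well (4 of 4 above 3 TPM, sums of 1414.4 and 1299.7 TPM), and so were 3 of 5 Schwann cell markers (sums of 1177.4 and 1118.1 TPM), so the preparations were not pure. Enrichment for neurons is a step of the study's methods and could not be measured here without an unenriched library. None of 6 macrophage markers (0.11 to 2.08 TPM) and none of 5 B lymphocyte markers (0 to 0.79 TPM) passed 3 TPM in either pool. Of 3 T lymphocyte markers Cd3d was at 2.97 and 3.13 TPM and the others were below, and of 3 endothelial markers Cdh5 was above in both, at 3.790 and 3.153 TPM. In such mixed RNA, fewer cells of a type and less RNA per cell cannot be told apart.

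Of the 8 genes, 7 were above 3 TPM in the alum pool and 7 in the KLH pool, and Cnr2 was the exception in both. Over all genes the share above 3 TPM was 46.9% and 46.3%. Cnr1 was the highest, at 59.9 TPM in the alum pool and 60.7 TPM in the KLH pool, and was exceeded by 13.4% and 13.2% of all genes. Oprm1 followed at 46.5 and 44.1 TPM, Mgll at 23.8 and 20.6 TPM and Oprl1 at 14.8 and 13.9 TPM. Oprd1 reached 9.73 and 7.66 TPM, Oprk1 6.32 and 6.61 TPM, Faah 3.63 and 3.30 TPM, and Cnr2 2.52 and 2.00 TPM. The order was the same in both pools, and for no neighbouring pair in it did the values of the 2 pools overlap. How far single mice would spread around these levels is not known from 1 pool per group.

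**Figure D1:**
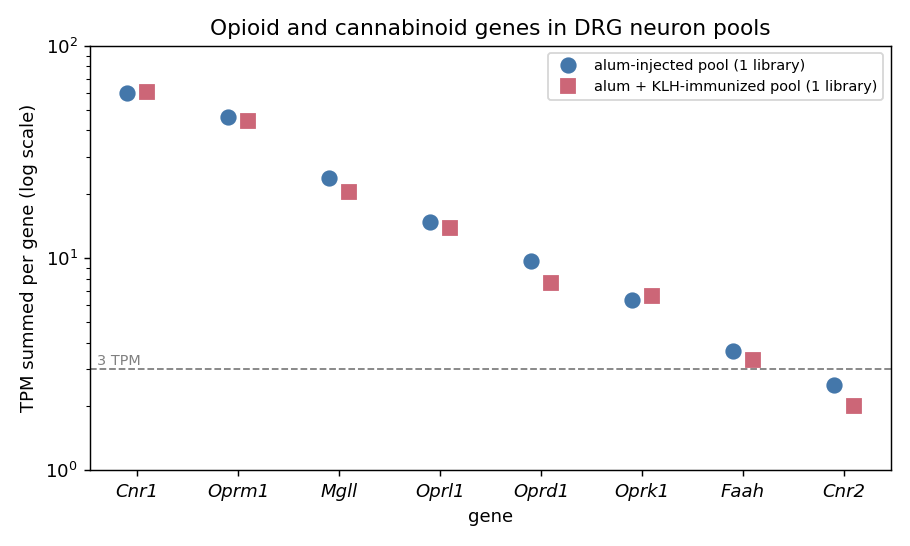
TPM summed per gene (vertical axis, log scale) for the 8 genes, ordered by level, with a circle for the alum pool and a square for the KLH pool, 1 library each, and a dashed line at 3 TPM. The genes descend from Cnr1 near 60.7 TPM to Cnr2 at 2.00 TPM, and only Cnr2 lies under the line.

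Oprm1 encodes the mu opioid receptor, the main target of morphine. The gene lies on chromosome 10 of GRCm38 from 6758593 to 7038209, and made up 60.1% of the summed TPM of the 4 opioid receptor genes in the alum pool (77.3 TPM) and 61.1% in the KLH pool (72.3 TPM). Its level was 4.78 times that of Oprd1 in the alum pool and 5.77 times in the KLH pool, and 7.36 and 6.67 times that of Oprk1. The files list 10 Oprm1 rows. Their exon structure was read from the GENCODE transcripts that its RefSeq table pairs with them. These counterparts share the coding exons 2 and 3 and differ at both ends, so that they encode receptors with different carboxyl-terminal tails. The 6 tails are shown because the row levels differ by them, as the last 15 bases of exon 3 (chr10:6829977-6830497, plus strand) in lower case followed by the coding bases after exon 3 and the stop codon in capitals.
Tail of NM_001302794 and NM_001302793, 12 codons, chr10:6849806-6849841: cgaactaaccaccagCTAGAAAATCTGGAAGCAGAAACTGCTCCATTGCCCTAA
Tail of NM_001304948, 23 codons, chr10:6840566-6840634: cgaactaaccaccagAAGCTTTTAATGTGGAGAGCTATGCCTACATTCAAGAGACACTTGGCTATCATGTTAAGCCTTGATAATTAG
Tail of NM_001302796 and NM_001304950, 7 codons, chr10:7014041-7014061: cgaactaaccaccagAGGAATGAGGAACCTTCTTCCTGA
Tail of NM_001039652, NM_001304955 and NM_001302795, 52 codons in 3 exons between chr10:6979616-7037158: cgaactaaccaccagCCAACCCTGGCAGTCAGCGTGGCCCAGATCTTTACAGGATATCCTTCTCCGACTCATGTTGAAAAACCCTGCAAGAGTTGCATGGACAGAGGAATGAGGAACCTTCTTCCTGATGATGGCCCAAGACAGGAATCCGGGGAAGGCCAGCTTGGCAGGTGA
Tail of NM_001304938, 5 codons, chr10:6841259-6841273: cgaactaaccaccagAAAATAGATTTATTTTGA
Tail of NM_001304937, 4 codons read through from exon 3, chr10:6830498-6830509: cgaactaaccaccagGTATGTGCTTTCTAG

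Nearly all of the Oprm1 signal was assigned to rows with the 12-codon tail of exon 4. These 2 rows summed to 45.6 TPM in the alum pool and 43.5 TPM in the KLH pool, or 98.1% and 98.5% of the gene. NM_001302794 was at 40.3 and 39.1 TPM, and NM_001302793 at 5.36 and 4.40 TPM. The row with the 23-codon tail, NM_001304948, was at 0.754 and 0.508 TPM. The other 7 rows were each below 0.1 TPM in both pools, with a highest value of 0.081 TPM, and 3 of them were at 0 in both.

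The rows also differ in their first exon. NM_001302794 and 2 more rows have counterparts that begin at an exon about 30 kb upstream of exon 1 and pass straight to exon 2, without the exon 1 that encodes the amino terminus of the full receptor, and these 3 rows held 86.8% of the Oprm1 TPM in the alum pool and 88.5% in the KLH pool. The counterpart of NM_001302794 has a reading frame of 330 codons and is classed by GENCODE as a target of nonsense-mediated decay. That of NM_001302793 begins at the same upstream exon, includes exon 1 and encodes 398 codons, and this row held 11.5% and 9.98% of the gene. The 6 rows whose counterparts begin at exon 1 held 1.68% and 1.49%, and none of those counterparts ends in exon 4. A transcript that begins at exon 1 and carries the 12-codon tail thus has no row of its own among the counterparts. The share of each start therefore depends on this set of rows and does not show which start was used.

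Reads that fall in shared sequence are divided among rows by the quantification, which limits what a single row shows. Of the 2339 stretches of 31 bases in the counterpart of NM_001302793, 52.0% also occur in that of NM_001302794 and 775 (33.1%) in no other Oprm1 row. Of the 1540 such stretches in the counterpart of NM_001302794, 1216 (79.0%) also occur in that of NM_001302793 and 148 (9.61%) in no other Oprm1 row. The 148 begin in exons 4 and 5 of that counterpart, downstream of its coding region, and whether the RefSeq record ends in the same way was not examined. Its last exon also overlaps 89 exonic bases of Ipcef1 on the opposite strand, a gene at 1.63 and 1.33 TPM, and whether the quantification used strand is not given in the sources used here. The split of Oprm1 between rows with and without exon 1 was therefore a result of this assignment and was not tested against reads. The gene total sums over the rows, but each row is corrected for its own length. The counterparts of NM_001302794 and NM_001302793 have 1570 and 2369 bases. The total, and its ratios to the other opioid receptor genes, thus depend on the split as well, by an amount that was not measured.

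**Figure D2:**
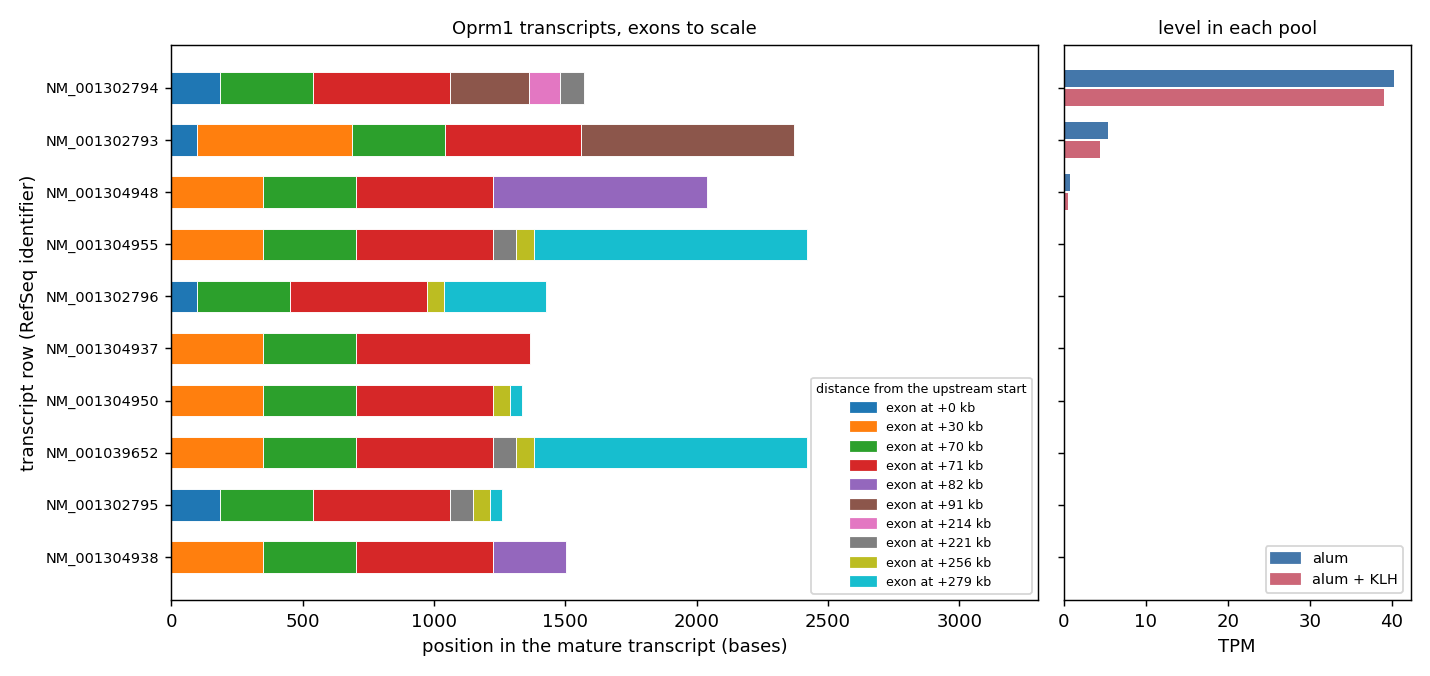
Exons of the GENCODE counterparts of the 10 Oprm1 rows along the mature transcript (horizontal axis, bases), coloured by distance from the upstream start, beside the TPM of each row in each pool. The top row, without the exon at about 30 kb, stands at 40.3 and 39.1 TPM, the next at 5.36 and 4.40 TPM, and 7 rows are below 0.1 TPM.

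Since the rows differ in their starts, the windows around the upstream start and around the start of exon 1 are shown, each from 250 bases before to 50 bases after a RefSeq start, with matches on either strand to any of 3 motifs (TATAAA as a TATA box, CCAAT and the GC box GGGCGG) in capitals. The sequences are from RefSeq on GRCm38.p6. The GENCODE counterparts that begin at exon 1 start at 6788809, downstream of the exon 1 window shown. A further RefSeq window at exon 1, from 6788326 to 6788625, largely overlaps it and is not shown.
Oprm1 upstream start, chr10:6758343-6758642, plus strand: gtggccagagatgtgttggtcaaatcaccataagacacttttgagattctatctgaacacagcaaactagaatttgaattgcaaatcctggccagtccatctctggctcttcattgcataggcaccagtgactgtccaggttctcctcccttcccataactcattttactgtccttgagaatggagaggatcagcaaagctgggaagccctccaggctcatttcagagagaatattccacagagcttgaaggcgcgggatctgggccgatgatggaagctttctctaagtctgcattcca
Oprm1 exon 1 start, chr10:6788320-6788619, plus strand: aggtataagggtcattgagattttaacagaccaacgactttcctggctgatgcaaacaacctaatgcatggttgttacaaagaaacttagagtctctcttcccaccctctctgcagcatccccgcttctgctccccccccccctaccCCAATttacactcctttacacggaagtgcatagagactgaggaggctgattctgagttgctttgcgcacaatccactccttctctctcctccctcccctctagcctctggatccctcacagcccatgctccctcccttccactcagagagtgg
The upstream window held 47.3% G and C and none of the 3 motifs, and the exon 1 window 52.0% and a CCAAT match. Over all 32817 such windows the median was 52.7%, and TATAAA occurred in 13.6%, CCAAT in 37.4% and GGGCGG in 35.6% of them. A match is a description of these letters and not a factor's site.

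Oprd1, the delta opioid receptor gene (chromosome 4, 132110188 to 132144486), is represented by a single row, NM_013622. Its level was 9.73 TPM in the alum pool and 7.66 TPM in the KLH pool, 78.7% of the alum level and the lowest such share of the 8 genes. On log2(TPM + 1) the KLH pool was lower by 0.31, against an SD of 0.25 for the same difference among the 500 genes closest in level and 0.35 among the 500 closest transcript rows. Most marker lists of the other cell classes held more lower than higher genes in the KLH pool too, and 56.4% of all genes above 3 TPM in a pool were lower. All members above 3 TPM were lower for non-peptidergic nociceptors (3 of 3), tyrosine hydroxylase neurons (2 of 2), satellite glia (4 of 4) and Schwann cells (3 of 3), as were 5 of 7 pan-neuronal, 2 of 3 peptidergic and 2 of 3 neurofilament markers. The median differences of these lists were small, from -0.21 for tyrosine hydroxylase neurons to -0.05 for neurofilament neurons. Pvalb, the neurofilament marker that was higher, differed by 0.50 (SD 0.14). The part of these cell types in the Oprd1 difference was not tested. The promoter window of Oprd1 was the richest in G and C of the 15 windows found for 7 of the 8 genes, with 79.3% and 43 CpG pairs against a median of 7 over all windows.

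Oprk1, the kappa opioid receptor gene (chromosome 1, 5588450 to 5606134), was the lowest of the 4 opioid receptor genes in both pools, at 6.32 and 6.61 TPM. NM_011011 carried nearly all of it, and the second row, NM_001204371, was at 0.0012 and 0.00041 TPM. Both rows are paired with the same GENCODE transcript of 380 codons, so how they differ could not be read from it. The KLH pool stood at 105% of the alum level, a difference of 0.06 in log2(TPM + 1) that turned to -0.02 when TPM was set relative to Hprt, the housekeeping gene of the study's qPCR. Oprd1 exceeded Oprk1 by 1.54 times in the alum pool and 1.16 times in the KLH pool.

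Oprl1 encodes the nociceptin receptor and lies on chromosome 2 from 181715000 to 181720985. Its total differed little between the pools, with 14.8 TPM in the alum pool and 13.9 TPM in the KLH pool, but the rows behind the total were divided differently. NR_045540, a noncoding identifier, was at 6.02 and 8.84 TPM, or 40.7% and 63.7% of the gene. NR_045541, also noncoding, was at 1.24 TPM and at 0, and the third noncoding row was listed at 0 in both pools. The coding rows were both lower in the KLH pool, NM_001252565 at 4.69 and 3.09 TPM and NM_011012 at 2.84 and 1.96 TPM. Summed, the coding rows were at 7.53 and 5.05 TPM (50.9% and 36.3% of the gene) and the noncoding rows at 7.25 and 8.84 TPM.
These differences stand beside the scatter of single rows at this level. In log2(TPM + 1), NR_045540 was higher by 0.49 in the KLH pool (SD of 0.35 among the 500 closest rows), NR_045541 was at -1.16 (SD 0.52), NM_001252565 at -0.48 (SD 0.69) and NM_011012 at -0.38 (SD 0.73). The noncoding rows with signal thus differed in opposite directions. Summed, the noncoding rows were higher by 0.25 and the coding rows lower by 0.50 in the KLH pool, so the picture depends on how the rows are grouped. The counterparts of both coding rows encode the same 367 codons and differ in the first exon, and only 4.82% and 7.54% of their 31-base stretches are not in the other. The 3 noncoding rows have no counterpart in GENCODE's table, so their overlap with the coding rows was not measured.

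**Figure D3:**
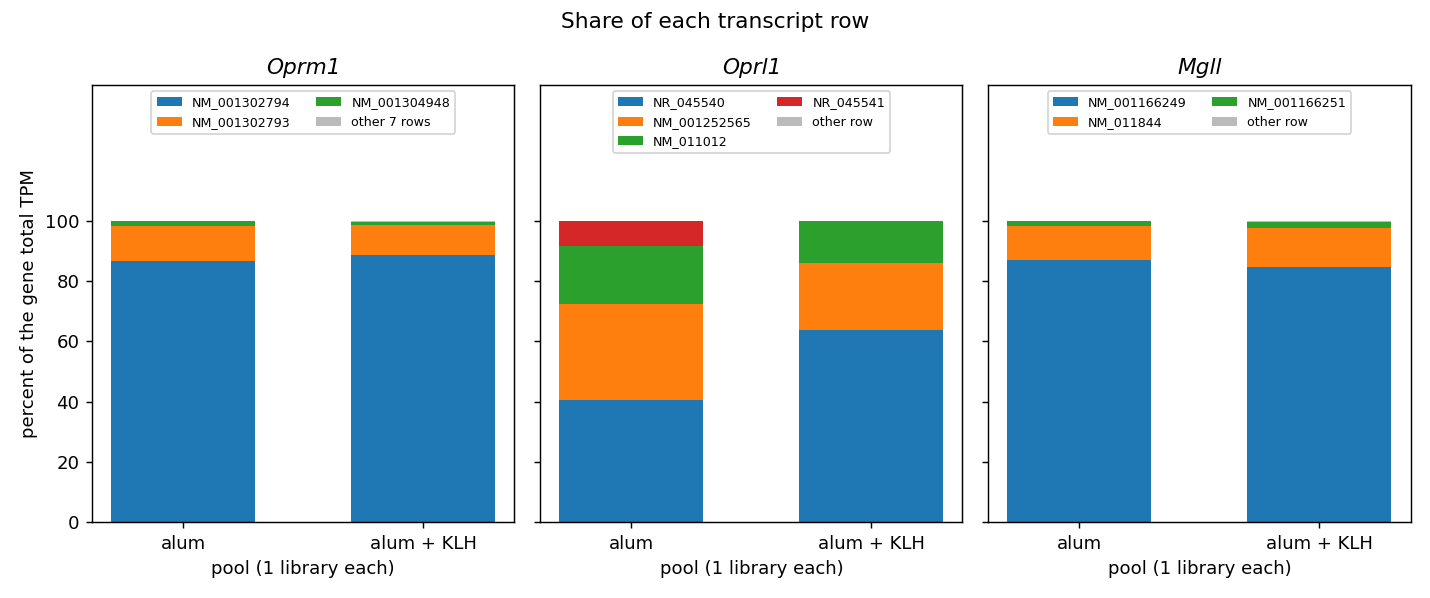
Share of the gene total TPM (vertical axis, percent) held by each transcript row of Oprm1, Oprl1 and Mgll in the alum and KLH pools, 1 library each, with rows under 0.1 TPM in both pools combined in grey. The main rows of Oprm1 (86.6% and 88.5%) and Mgll (86.8% and 84.7%) kept similar shares, while that of Oprl1 was 40.7% and 63.7%.

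Cnr1 encodes the CB1 receptor, the cannabinoid receptor of neurons, and lies on chromosome 4 from 33923171 to 33948831. It has 1 row in the files, NM_007726, whose counterpart has 2 exons and 473 codons in a single coding exon. At 59.9 and 60.7 TPM it exceeded Oprm1 by 1.29 times in the alum pool and 1.38 times in the KLH pool. The pools differed by 0.02 in log2(TPM + 1), the smallest difference among the 8 genes, and by -0.07 when TPM was set relative to Hprt.
Cnr2 encodes the CB2 receptor, known mainly from immune cells, and lies on chromosome 4 from 135895189 to 135920219. It was 23.8 times lower than Cnr1 in the alum pool and 30.3 times lower in the KLH pool, and at 2.52 and 2.00 TPM it did not reach the detection threshold, and 48.5% and 49.99% of all genes were higher. All of its signal was on NM_001305278. The other row, NM_009924, was at 0 in both pools. The counterparts of these rows share the coding exon of 347 codons and begin at different first exons, with 3.09% of the 31-base stretches of NM_001305278 and 5.89% of those of NM_009924 absent from the other. The windows around both RefSeq starts are shown since the rows differ in their first exons, with the same motifs in capitals. The counterparts begin downstream of these windows, at 135895394 for NM_009924 and 135911818 for NM_001305278. The pairing of windows with rows is therefore by position and was not checked further.
Cnr2 start of the row without signal, chr4:135894939-135895238, plus strand: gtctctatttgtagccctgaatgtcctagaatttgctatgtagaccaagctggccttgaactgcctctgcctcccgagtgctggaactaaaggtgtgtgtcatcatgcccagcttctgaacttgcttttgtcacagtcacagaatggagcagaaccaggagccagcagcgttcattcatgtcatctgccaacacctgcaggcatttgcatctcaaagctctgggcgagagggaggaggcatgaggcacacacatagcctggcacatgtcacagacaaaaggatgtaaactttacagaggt
Cnr2 start of the row with signal, chr4:135911430-135911729, plus strand: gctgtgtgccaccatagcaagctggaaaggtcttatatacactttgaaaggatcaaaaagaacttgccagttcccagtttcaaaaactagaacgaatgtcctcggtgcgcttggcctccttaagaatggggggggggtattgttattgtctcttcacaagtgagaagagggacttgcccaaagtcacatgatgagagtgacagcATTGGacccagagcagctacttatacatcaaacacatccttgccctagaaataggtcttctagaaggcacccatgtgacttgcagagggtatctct
The first window held none of the 3 motifs, and the second held 46.3% G and C and a CCAAT match on the minus strand. Both had 3 CpG pairs, whereas the Cnr1 windows nearest its row's start held 40 and 33.

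Mgll encodes monoacylglycerol lipase, which hydrolyses 2-arachidonoylglycerol, and lies on chromosome 6 from 88724412 to 88828360. It was the higher of the 2 enzyme genes, at 6.56 times the level of Faah in the alum pool and 6.24 times in the KLH pool. The short row NM_001166249 held 86.8% and 84.7% of Mgll, with 20.7 TPM in the alum pool and 17.4 TPM in the KLH pool. The long row NM_011844 was at 2.75 and 2.65 TPM and NM_001166251 at 0.384 and 0.420 TPM, while NM_001166250 was at 0 and 0.073 TPM. By its counterpart, the short form skips 135 coding bases (45 codons) that the long form keeps, shown in capitals with 15 bases on either side.
Mgll coding stretch skipped in NM_001166249, chr6:88823191-88823325, plus strand: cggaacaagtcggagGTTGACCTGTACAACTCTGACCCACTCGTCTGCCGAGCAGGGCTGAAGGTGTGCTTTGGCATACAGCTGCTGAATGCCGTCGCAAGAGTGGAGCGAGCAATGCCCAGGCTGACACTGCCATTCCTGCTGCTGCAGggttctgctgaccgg
The short counterpart has 258 codons and 1034 bases in all, and the long one 303 codons and 3676 bases. Apart from the skip, they differ in the length of the 3′ untranslated region, which is 135 bases in the short and 2584 bases in the long counterpart. They also begin at different positions, 88724470 for the short and 88724412 for the long counterpart. Only 27 of the 1004 stretches of 31 bases in the short counterpart (2.69%) are in no other Mgll row, so little sequence marks the short row alone. The long counterpart is set apart from it by the skipped bases and the longer 3′ untranslated region. How far these fixed the split was not examined, and TPM of so short a transcript depends on the length correction. Summed over rows, Mgll was at 23.8 and 20.6 TPM, 86.3% of the alum level, with a difference of -0.20 in log2(TPM + 1) against an SD of 0.19 among genes of its level. For the short row alone these were -0.24 and 0.24.
Faah, the gene of fatty acid amide hydrolase, which hydrolyses anandamide, lies on chromosome 4 from 115996668 to 116018837 on the minus strand and has 1 row, NM_010173, with 15 exons and 579 codons in its counterpart. At 3.63 TPM in the alum pool and 3.30 TPM in the KLH pool it passed 3 TPM by a small margin in each.

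The comparison between the pools asks whether these genes differed after immunization with KLH, and without replicates it can only be described. Of the 7 genes above 3 TPM in at least 1 pool, 0 were 2-fold or more apart in TPM + 1 and 0 were 1.5-fold apart. Among all 11648 genes above this threshold in at least 1 pool, 1.64% were 2-fold and 2.56% were 1.5-fold apart. Over the 8 genes, 6 were lower in the KLH pool and 2, Oprk1 and Cnr1, were higher. The median difference of the 7 was -0.08 in log2(TPM + 1), beside -0.02 for all genes, of which 56.4% were lower. The difference was larger than the SD among genes of similar level for 2 of the 7, Oprd1 and Mgll, as it was for 17.1% of all 11648 genes, and a count of 2 among 7 says little about these genes. With the KLH pool rescaled by the median ratio Mgll was inside its SD (-0.19 against 0.188), and relative to Hprt, where other genes are closest in level, Oprd1 was inside its own (-0.38 against 0.53). Oprm1 was outside its SD relative to Hprt (-0.16 against 0.13). Without rescaling, the difference was -0.07 for Oprm1 (SD 0.13), -0.08 for Oprl1 (SD 0.23), -0.11 for Faah (SD 0.53) and -0.23 for Cnr2 (SD 0.55). This SD describes how far genes of a level differ between these libraries and does not test the immunization.

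**Figure D4:**
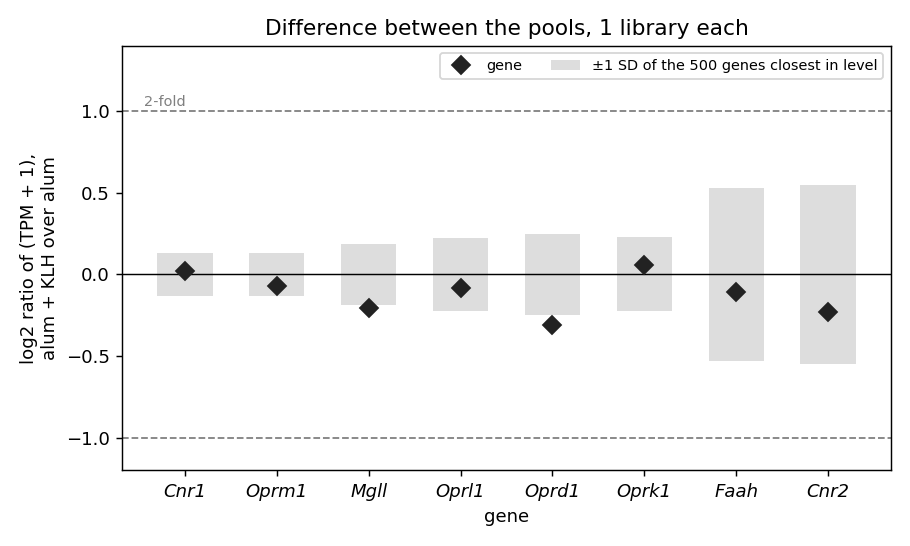
Difference between the pools for each gene as the log2 ratio of TPM + 1 (diamonds, alum + KLH over alum), with grey bars for 1 SD on either side of 0 among the 500 genes closest in level and dashed lines at 2-fold. Oprd1 at -0.31 and Mgll at -0.20 lie outside their bars, and no gene comes near 2-fold. Oprd1 is no longer outside relative to Hprt, and Mgll no longer when the KLH pool is rescaled by the median ratio.

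The 4 opioid peptide precursor genes were below 3 TPM in both pools. Penk, which encodes proenkephalin, was at 0.949 TPM in the alum pool and 2.78 TPM in the KLH pool. It was the largest difference among the 49 ligand, enzyme and signalling genes listed for the pathways, 0.95 in log2(TPM + 1) against an SD of 0.90 at its level. Pomc (proopiomelanocortin) was at 0.779 and 0.969 TPM, Pnoc (the nociceptin precursor) at 0.435 and 0.427 TPM and Pdyn (prodynorphin) at 0.2499 and 0.2622 TPM. The genes that process such precursors were abundant. Cpe, carboxypeptidase E, was at 1609.1 and 1703.4 TPM, and the prohormone convertase genes Pcsk1 and Pcsk2 were at 153.3 and 169.0 TPM and at 160.3 and 169.4 TPM. Among peptidases that degrade opioid peptides, Mme (neprilysin) was at 18.3 and 20.1 TPM and Dpp3 at 7.72 and 6.69 TPM, while Ace and Anpep were under 1 TPM.

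For the endocannabinoids, 4 of 5 synthesis genes were above 3 TPM in both pools. Napepld, an enzyme of anandamide formation, was at 7.82 and 8.17 TPM, and the further anandamide pathway genes Abhd4 and Gde1 were at 38.7 and 34.6 TPM and at 211.1 and 200.9 TPM. Of the diacylglycerol lipases that form 2-arachidonoylglycerol, Daglb was at 3.91 and 3.95 TPM and Dagla at 1.60 and 1.30 TPM. Mgll and Faah were not the most abundant hydrolase genes, as Abhd12 and Naaa were higher in both pools. Abhd12, whose product can also cleave 2-arachidonoylglycerol, was at 256.6 and 257.4 TPM, and Naaa, an acid amidase for N-acylethanolamines, at 40.4 and 39.4 TPM. Abhd6, at 23.0 and 22.5 TPM, was above Mgll in the KLH pool only. The cyclooxygenase-2 gene Ptgs2, listed with them, was at 2.10 and 2.78 TPM, below both Mgll and Faah. Trpv1, the capsaicin receptor, which anandamide can also activate, was at 72.6 and 73.6 TPM, and the lipid-sensing receptor genes Gpr119, Gpr18 and Gpr55 were between 0.251 and 2.66 TPM. Cnrip1 and Sgip1, whose products bind the CB1 receptor, were at 107.7 and 97.5 TPM and at 58.5 and 63.2 TPM. Fabp5, an intracellular lipid carrier, was at 399.7 and 324.9 TPM, a difference of -0.30 against an SD of 0.13 at its level, and the satellite glia markers were lower too, by a median of 0.07 in log2(TPM + 1). The part of glia in the Fabp5 difference was not tested.

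All 5 Gi and Go alpha subunit genes were above 3 TPM, with Gnao1 at 568.3 and 498.6 TPM, Gnai1 at 259.3 and 300.3 TPM, Gnai3 at 183.4 and 181.0 TPM and Gnaz at 4.78 and 3.81 TPM. Gnai2 was at 43.3 TPM in the alum pool and 30.1 TPM in the KLH pool, and its difference of -0.51 compared with an SD of 0.15 at its level. Gnao1 was also beyond its SD in the same direction (-0.19, SD 0.16) and Gnai1 in the opposite one (0.21, SD 0.19). Among 10 genes of receptor desensitization and sorting, all above 3 TPM, the highest were Rgs4, which shortens G protein signals, at 2421.2 and 2275.7 TPM, Gprasp1, whose product sorts receptors to lysosomes, at 280.1 and 271.4 TPM, and Arrb1 (beta-arrestin 1) at 76.9 and 71.4 TPM. Of the effector channels, Cacna2d1 was at 287.5 and 283.4 TPM, Cacna1b, the N-type calcium channel, at 42.7 and 41.2 TPM, Cacna1a at 13.95 and 13.96 TPM and Kcnj3, an inwardly rectifying potassium channel subunit, at 58.3 and 64.6 TPM. Its partner genes Kcnj6, Kcnj5 and Kcnj9 were between 0.328 and 2.14 TPM.
Across the 8 lists, 35 of 49 genes were above 3 TPM in each pool. None of the 35 was 1.5-fold apart in TPM + 1, beside 2.56% of all genes, and 15 were higher and 20 lower in the KLH pool, with a median difference of -0.03. Of the 35, 9 differed by more than the SD at their level, or 25.7% beside 17.1% of all genes.

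**Figure D5:**
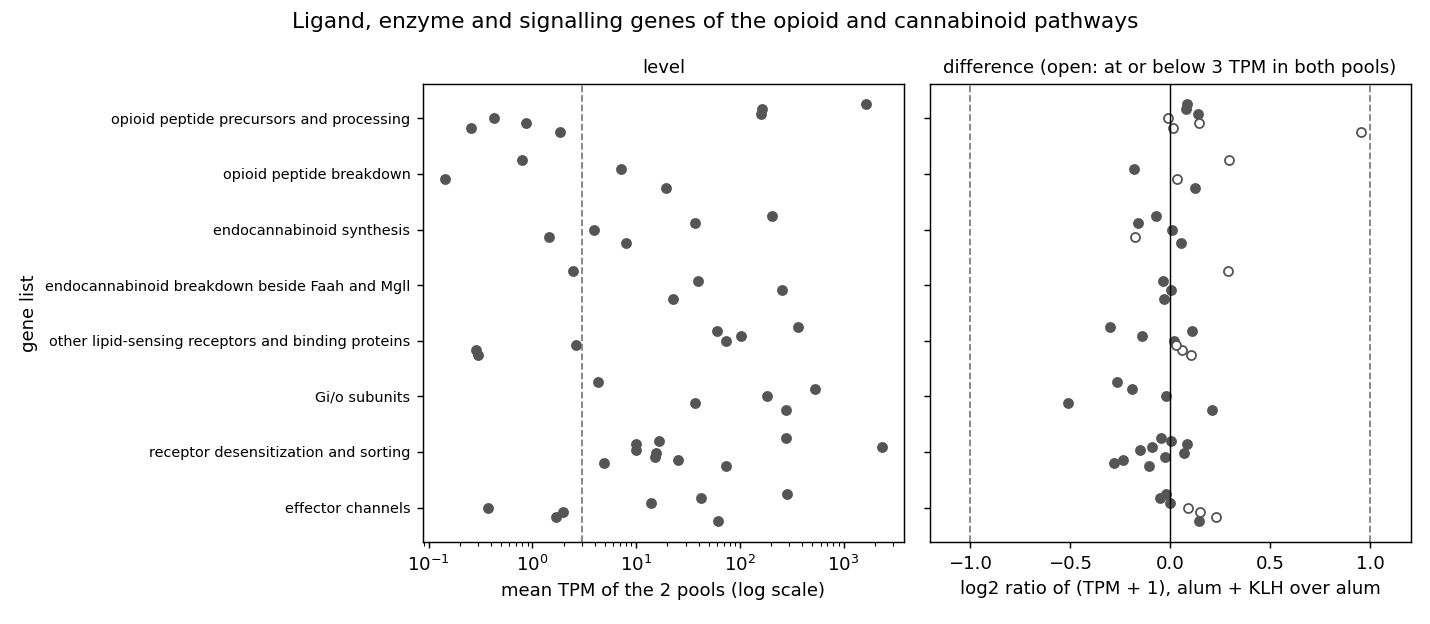
Mean TPM of the 2 pools (left, log scale, dashed line at 3 TPM) and the log2 ratio of TPM + 1, alum + KLH over alum (right, dashed lines at 2-fold, open circles for genes at or below 3 TPM in both pools), for 49 genes in 8 lists, 1 circle per gene. Precursor processing genes reach 1656.3 TPM while the 4 precursors stay below 3 TPM, and the open circle at 0.95 is Penk.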

How the data were processed

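RNA-seq was available from 2 libraries, 1 per group, each from neurons pooled from 10 mice. Per the study's methods and the labels, the authors made stranded mRNA libraries, trimmed paired-end reads with cutadapt and quantified them with kallisto on the annotated mouse transcriptome (mm10). Tool versions are not given in the sources used here. The deposited TPM values, 1 per RefSeq transcript, were used unchanged and were summed per symbol.

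Genes above 3 TPM were counted as detected. Differences used a pseudocount of 1 TPM, which understates changes of low genes, and each was set beside the SD over the 500 genes or rows closest in mean log2(TPM + 1). No test was made. Transcripts at or above 0.1 TPM in a pool were named. Every gene was named of pathway lists with at most 7 genes, and the 3 highest of the longer list. The genes and lists were chosen with earlier results of these data known. Structures came from GENCODE M21 (GRCm38, the assembly of mm10), whose RefSeq table paired 23 of the 26 rows, and windows from RefSeq. As alternatives, the threshold was set to 1 or 10 TPM and the pseudocount to 0.1 or 0.5 TPM, with scaling by the median ratio of the pools (0.987) or to Hprt, the highest row per gene, a limit of 1.5-fold and no filter on low values. Python 3.11.15, numpy 2.4.6, pandas 2.3.3 and matplotlib 3.10.9 were used, and the calculations were tested on simulated data.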

Additional observations from a re-analysis of the deposited data

How the results depend on the processing

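With a threshold of 10 TPM in place of 3 TPM, 4 of the 8 genes counted as detected in each pool in place of 7, and with 1 TPM all 8 did. The count of genes 2-fold apart was 0 under every alternative run, including both pseudocounts, both scalings, the highest row per gene, a limit of 1.5-fold and no filter on low values. Of 40 alternative values of the difference in log2(TPM + 1), 39 lay within the SD of genes of similar level around the reported value, and 3 changed sign. Oprk1 and Cnr1 changed sign relative to Hprt, whose own difference was 0.08, and Oprl1 went from -0.08 to 0.49 on its highest row, the noncoding NR_045540. Oprd1 ranged from -0.38 to -0.29 and Mgll from -0.28 to -0.19. The number of genes whose difference exceeded the SD at their level, computed anew under each setting, was 2 as reported, 1 after rescaling by the median ratio, where Mgll was inside it, 3 on the highest row, with Oprl1 added, and 2 relative to Hprt, where Oprm1 took the place of Oprd1. On the highest row Oprl1 came after Oprd1 and Oprk1 in the alum pool but not in the KLH pool, and 5 of 8 genes kept their place in the order there. Leaving out a library was not possible with 1 per group. No paired analysis was possible because each group has 1 library. The study's methods give a minimum read number per library, but TPM does not keep the reads assigned to each gene, so counting error around low values such as those of Cnr2, Faah and Penk was not computed.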
